A study of Homo sapiens with 3 samples.

Results

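The 4 miRNAs described here are hsa-let-7b-3p, hsa-let-7d-3p, hsa-let-7e-3p and hsa-let-7f-1-3p, the strands cut from the 3′ arm of 4 let-7 hairpins, taken by name from a table of 1149 mature human miRNAs. Small RNA sequencing was done on clones of the established human tongue cancer line CAL-27, a squamous carcinoma, with 1 library in each of 3 groups. RR was the radioresistant group, derived by daily X-ray doses of 2 Gy in 2 cycles of 5 days, each followed by 2 weeks of recovery, and then cloned from single cells. Mock is the label of a library that the series' design text traces to clones of cells irradiated once, with 2 Gy. CC was the untreated control, also cloned from the parental CAL-27 cells. The number of clones in a library is not stated in the labels, so a difference between clones and a difference between treatments cannot be told apart. The treatment tags carry the name of the 2 Gy dose on RR and the name of irradiation, without a dose, on Mock, which does not settle which of these libraries had the single and which the repeated exposure. Each value therefore refers to the library labelled so, and if the labels were exchanged, every value given for RR would be that of Mock and the reverse.

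A let-7 hairpin is cut by Drosha and Dicer into a duplex of a 5p and a 3p strand. The 5p strand is the guide that Argonaute keeps in most tissues, where it represses transcripts such as those of RAS genes and HMGA2, while the 3p strand, called the passenger strand, is mostly degraded. The choice between strands depends on the pairing at the duplex ends and on the first base, with U and A favoured, and LIN28 can block the processing of let-7 precursors as a whole.

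The sequences of the 4 passenger strands show how closely they resemble each other, with the seed (bases 2 to 8, by which a miRNA recognises its targets) in capitals.
hsa-let-7b-3p: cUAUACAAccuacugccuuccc
hsa-let-7f-1-3p: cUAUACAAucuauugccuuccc
hsa-let-7d-3p: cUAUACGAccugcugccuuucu
hsa-let-7e-3p: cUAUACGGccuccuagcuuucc
The sequences are from RefSeq (GRCh38.p14), and all 4 are identical to those in the deposited table. let-7b-3p and let-7f-1-3p share a seed, which among the listed miRNAs is also that of let-7a-3p and miR-98-3p, whereas no other listed miRNA has the seed of let-7d-3p or of let-7e-3p. All 4 strands begin with C and carry the same base at 13 of 22 positions. Counted from 1 at the 5′ end, with the base of let-7b-3p written first, let-7f-1-3p differs from let-7b-3p by C9U and C13U, let-7d-3p by A7G, A12G, C20U and C22U, and let-7e-3p by A7G, A8G, A12C, G15A, C16G and C20U. let-7b-3p and let-7f-1-3p thus lie within 2 mismatches of each other, as do let-7e-3p and let-7a-2-3p. The handling of reads that match several strands is unknown here, which makes the level of the rarer strand of each pair uncertain. Likeness among the guide strands, which also resemble each other, was not examined in this way. The levels of the guide strands, and every share or ratio that uses them, may carry the same uncertainty.

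The hairpins of let-7d and let-7b, which among these 4 had the largest differences of the arm ratio between libraries, are shown whole with the 5p strand and then the 3p strand in capitals.
MIRLET7D: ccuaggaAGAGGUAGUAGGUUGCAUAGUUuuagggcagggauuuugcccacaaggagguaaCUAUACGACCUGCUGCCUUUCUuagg
MIRLET7B: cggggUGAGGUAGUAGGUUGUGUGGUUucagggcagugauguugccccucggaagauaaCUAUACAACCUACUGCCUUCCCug
Of the 4 guide strands paired with these passenger strands, let-7d-5p begins with A and the other 3 begin with U. MIRLET7D lies on the plus strand at chr9:94178834-94178920 (GRCh38), 2400 bases after MIRLET7F1 at chr9:94176347-94176433, and both stand beside MIRLET7A1. In GENCODE release 29 both are within the lincRNA gene AL158152.2 and outside its exons, and MIRLET7D also lies opposite the antisense lincRNA gene LINC02603. MIRLET7B, at chr22:46113686-46113768, lies in an exon of the lincRNA MIRLET7BHG, beside MIRLET7A3 and MIR4763. MIRLET7E, at chr19:51692786-51692864, lies within the protein-coding gene SPACA6, outside its exons, opposite an exon of the antisense lincRNA SPACA6P-AS, between MIR99B and MIR125A. The mature passenger strands lie at chr9:94178895-94178916 (let-7d-3p), chr9:94176409-94176430 (let-7f-1-3p), chr22:46113745-46113766 (let-7b-3p) and chr19:51692838-51692859 (let-7e-3p), all on the plus strand. Whether reads were counted by strand is not stated in the labels. let-7b-3p, let-7d-3p, let-7e-3p and let-7f-1-3p each come from 1 hairpin, as do their 5p partners except let-7f-5p, which is cut from both MIRLET7F1 and MIRLET7F2.

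The libraries held 10473400 reads for RR, 10632785 for Mock and 10769990 for CC, by the total behind the deposited per-million scale, and 1 library per group allows no replicate check and no p-value. Values are rpm, reads per 1000000 reads of that total, and intervals are exact 95% intervals that cover counting error only, since the labels mention no molecular identifiers and PCR copies count as reads. The floor used, 3 reads, was 0.286 rpm in RR, 0.282 rpm in Mock and 0.279 rpm in CC. Epithelial miRNAs (miR-205-5p, miR-200c-3p, miR-141-3p and miR-203a-3p) summed to 43898 rpm in RR, 28150 rpm in Mock and 37723 rpm in CC. The lower sum in Mock came from miR-205-5p, with 14174 rpm in Mock and 25945 in CC. miR-200c-3p had 13918 rpm in Mock and 11739 in CC, miR-141-3p 34.4 and 16.6, and miR-203a-3p 23.7 and 22.8. The library labelled Mock stood apart from the others in blood miRNAs: the 7 listed of 8 markers summed to 410 rpm in Mock, against 12.3 in RR and 9.56 in CC, most of it miR-486-5p, and the erythroid miR-144-3p had 26 reads in Mock and 0 in both others. Muscle markers summed to 409 rpm in RR, 345 rpm in Mock and 341 rpm in CC, most of it miR-1-3p. Of these, miR-206 had 3.63 rpm in RR, 25.5 rpm in Mock and 1.76 rpm in CC. The 3 listed of 4 mesenchymal markers summed to 6.49 rpm in RR, 5.64 rpm in Mock and 6.41 rpm in CC. The part of these markers in the results below was not tested.

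hsa-let-7d-3p was by far the most abundant of the passenger strands. It stood at 1473 rpm in RR (95% Poisson interval 1450 to 1497), 854 rpm in Mock (837 to 872) and 1253 rpm in CC (1232 to 1274), and by its mean it was rank 28 of all 1149 miRNAs. It was thus lower in Mock than in both other libraries. hsa-let-7b-3p had 248 rpm in RR (239 to 258), 151 in Mock (144 to 159) and 251 in CC (242 to 261), with the same library low and the other two with overlapping intervals. hsa-let-7e-3p was rarer, with 26.3 rpm for RR (275 reads), 23.7 for Mock (252 reads) and 17.8 for CC (192 reads), lowest in CC. hsa-let-7f-1-3p had 15.5 rpm in RR (162 reads), 28.8 in Mock (306 reads) and 15.2 in CC (164 reads), so that it was highest in the library where let-7b-3p and let-7d-3p were lowest. All 4 strands passed the filter of a mean of 10 rpm over the libraries, as did 208 miRNAs in all. All 4 are 22 bases long, so their rpm values need no adjustment for length, but ligation favours some ends over others and a level set between miRNAs carries that.

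**Figure D1:**
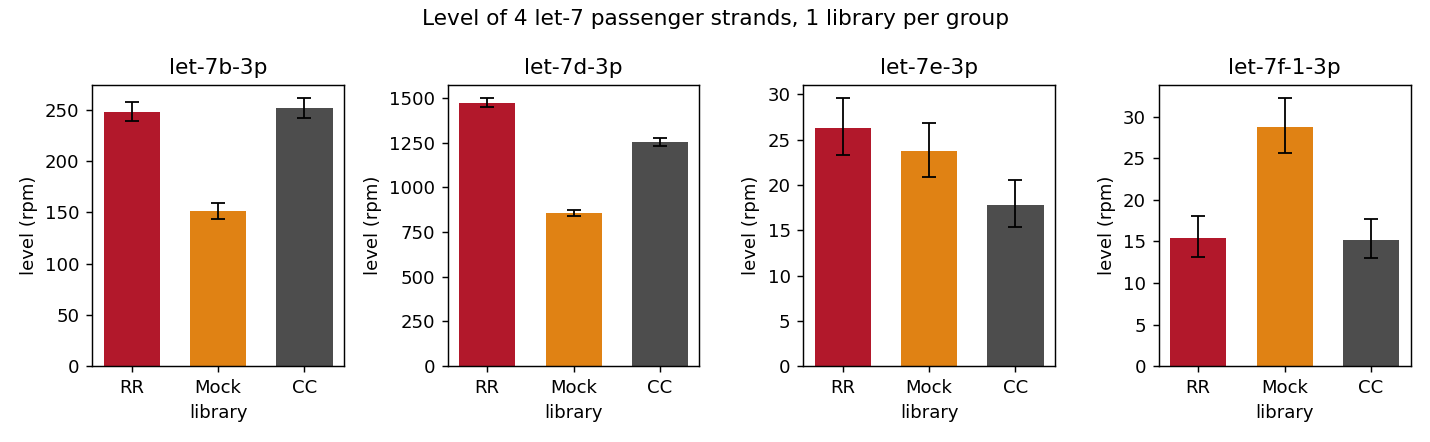
Level (rpm, linear axis from 0) of each passenger strand in the libraries RR, Mock and CC; bars are single libraries and error bars are exact 95% Poisson intervals. let-7d-3p and let-7b-3p were lowest in Mock at 854 and 151 rpm, let-7f-1-3p was highest there at 28.8 rpm and let-7e-3p was lowest in CC at 17.8 rpm.

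Set beside the guide strand, the passenger strand took very different shares of the reads from hairpin to hairpin. For let-7d, the 3p strand held 28.4% of the reads of both arms in RR (Clopper-Pearson interval 28.1% to 28.8%), 17.9% in Mock (17.5% to 18.2%) and 31.4% in CC (31.0% to 31.8%). That is 1 passenger read for 2.52 guide reads in RR, 4.59 in Mock and 2.18 in CC. For let-7e the share was 4.72% in RR (4.19% to 5.29%), 4.30% in Mock (3.80% to 4.85%) and 4.85% in CC (4.20% to 5.57%), with overlapping intervals. For let-7b it was 2.94% in RR (2.83% to 3.05%), 2.83% in Mock (2.69% to 2.97%) and 4.25% in CC (4.09% to 4.41%), highest in CC. let-7f-1-3p held only 0.137% of its reads together with let-7f-5p in RR (0.117% to 0.160%), 0.158% in Mock (0.141% to 0.177%) and 0.194% in CC (0.166% to 0.226%). let-7f-5p also comes from the second let-7f hairpin. These shares are therefore lower limits for MIRLET7F1 alone, but only if all reads counted as let-7f-1-3p are its own. let-7f-5p, with 11258 rpm for RR, 18181 for Mock and 7820 for CC, was the most abundant of the 4 guides in each library, and its passenger strand was the rarest of the 4 in RR and CC, while let-7e-3p was the rarest in Mock. All 3 libraries gave the same order of shares, let-7d above let-7e above let-7b above let-7f-1, although in CC the intervals of let-7e and let-7b overlapped.

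**Figure D2:**
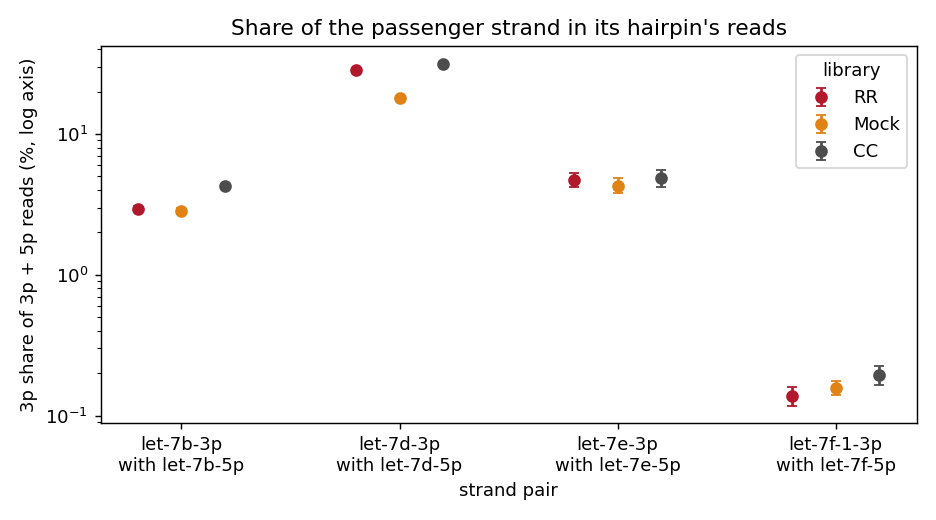
Share of the 3p strand in the summed reads of both arms (percent, log axis) for 4 strand pairs in RR, Mock and CC; error bars are exact 95% Clopper-Pearson intervals, often smaller than the point. let-7d ran from 17.9% to 31.4%, let-7e and let-7b lay between 2.83% and 4.85%, and let-7f-1 was under 0.2% in every library.

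Over the whole family, 10 let-7 passenger strands and 9 guide strands were listed. Passenger strands made up 3.02% of let-7 reads in RR (2.98% to 3.06%), 1.59% in Mock (1.56% to 1.62%) and 3.83% in CC (3.77% to 3.89%). The 4 strands described here gave 98.6% of the passenger reads in RR, 97.4% in Mock and 98.6% in CC. let-7d-3p alone gave 82.4% of them in RR, 78.7% in Mock and 80.4% in CC. let-7b-3p gave 13.9% in RR, 13.9% in Mock and 16.1% in CC. Without the let-7d hairpin the passenger share was 0.583% in RR, 0.365% in Mock and 0.834% in CC, again lowest in Mock and highest in CC. These pooled shares were not corrected for the trend with GC content described below.

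RR over CC asks what differs between the library labelled radioresistant and untreated cells. The guide strands of these hairpins were higher in RR on the deposited scale by similar amounts, and 2 of the passenger strands, let-7b-3p and let-7f-1-3p, did not share that difference. let-7b-3p was 0.987-fold (0.935 to 1.04), at 248 rpm in RR and 251 in CC, while let-7b-5p, with 8194 rpm in RR and 5670 in CC, was 1.45-fold higher (1.43 to 1.46). let-7f-1-3p was 1.02-fold (0.812 to 1.27), and let-7f-5p 1.44-fold higher (1.43 to 1.45). let-7d-3p was 1.18-fold higher (1.15 to 1.20), less than let-7d-5p at 1.35-fold (1.33 to 1.37). let-7e-3p was 1.47-fold higher (1.22 to 1.78), beside 1.52-fold for let-7e-5p (1.46 to 1.58). None of the 4 passenger strands was past 2-fold, where 3 of 208 miRNAs were, a background of 1.44% (0.962% higher and 0.481% lower). Their median log2(rpm + 1) ratio was 0.13, beside 0.36 for all 208 miRNAs and 0.53 for the 4 guides. Because RR stands above CC on the whole, the sign of single values rests on the scale: let-7d-3p, 0.23 on the log2 scale, turned to -0.15 with median-ratio scaling, -0.08 when the 10 most abundant miRNAs were left out of the scaling and -0.10 on the share of listed miRNA reads, while the median of all 208 became -0.02, 0.04 and 0.03; let-7f-1-3p, at 0.02, turned to -0.34, -0.28 and -0.30. let-7b-3p, at -0.02, was -0.40 with median-ratio scaling.

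The ratio of 3p to 5p reads is free of that scale, as both arms are read in the same library. In RR over CC it was 1.46-fold lower for let-7b (1.39 to 1.55), 1.42-fold lower for let-7f-1 (1.13 to 1.77) and 1.15-fold lower for let-7d (1.12 to 1.18). For let-7e it was 0.971-fold (0.801 to 1.18), which includes no difference. As let-7f-5p is also cut from MIRLET7F2, the let-7f-1 value is not that of MIRLET7F1 alone, here and in the comparisons below. These values were set beside the 42 hairpins whose arms are both listed, the lower arm with a mean of 10 rpm or more. None of the 42 (0%) was past 2-fold in either direction, and their log2 changes ran from -0.63 to 0.79 with a median of -0.05. Of the 42 hairpins, 2 had a lower value than let-7b (-0.55), 3 lower than let-7f-1 (-0.50), 12 lower than let-7d (-0.20) and 21 lower than let-7e (-0.04). let-7b and let-7f-1 therefore stood near the low end of the hairpins measured and let-7e in the middle. The place of let-7f-1 is less sure, with 162 reads in RR and 164 in CC. Its interval takes in the let-7d value of 1.15-fold lower.

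**Figure D3:**
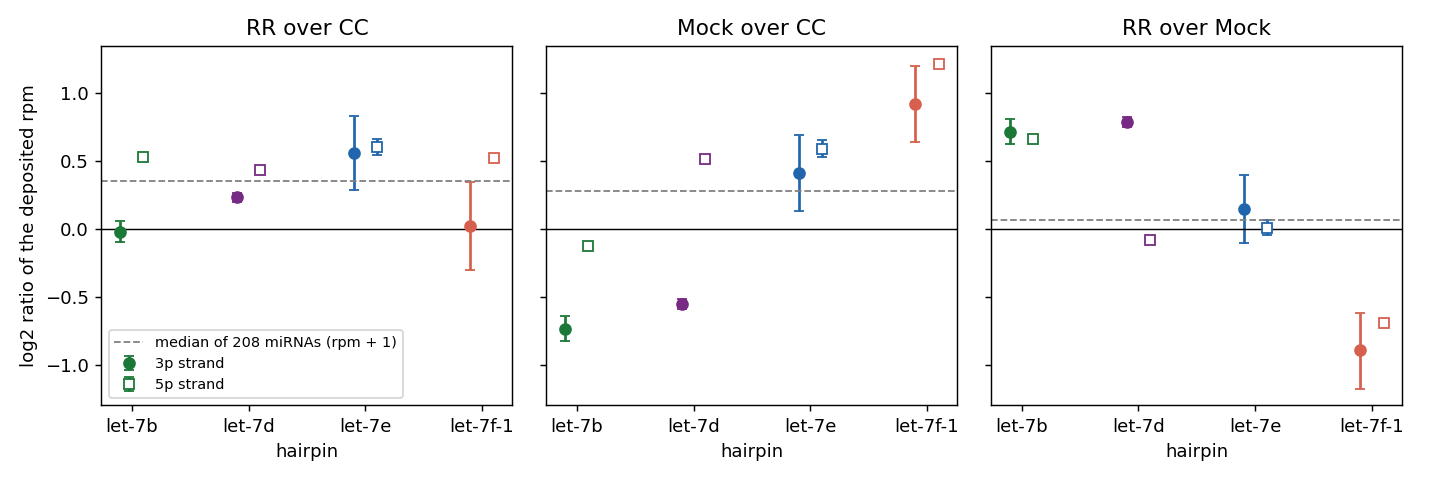
Log2 ratio of the deposited rpm (vertical axis) for the 3p strand (filled circles) and the 5p partner (open squares) of 4 hairpins in RR over CC, Mock over CC and RR over Mock; error bars are exact 95% counting intervals and the dashed line is the median of 208 miRNAs after adding 1 rpm. In RR over CC let-7b-3p and let-7f-1-3p lie near 0 with their guides near 0.5, and in Mock over CC let-7d-3p lies at -0.55 with its guide at 0.52.

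Mock over CC sets the library labelled Mock, from singly irradiated cells if the label holds, against untreated cells, and it uses the same CC library as the comparison above. The passenger strands went separate ways. let-7b-3p was 1.66-fold lower in Mock (1.56 to 1.77), at 151 rpm in Mock and 251 in CC, and let-7d-3p 1.47-fold lower (1.43 to 1.51), at 854 rpm in Mock and 1253 in CC. let-7f-1-3p was 1.89-fold higher (1.56 to 2.30) and let-7e-3p 1.33-fold higher (1.10 to 1.61). let-7d-3p and let-7f-1-3p lie in the same cluster on chromosome 9 and stood on opposite sides of CC. None of the 4 was past 2-fold, against a background of 15.9% (33 of 208 miRNAs, with 12% higher and 3.85% lower). Their median log2 ratio was -0.08, beside 0.28 for all 208. On the log2 scale let-7b-3p was at -0.73 and let-7d-3p at -0.55, and both stayed below 0 under every scaling tried. let-7b-3p came past 2-fold with median-ratio scaling (-1.03), without the 10 leading miRNAs (-1.08) and on the share of listed miRNA reads (-1.24), and let-7d-3p on that share (-1.06). let-7e-3p, at 0.39, turned to -0.10 on the share of listed miRNA reads. let-7f-1-3p, at 0.88, kept its sign but was smaller. It was 0.59 with median-ratio scaling, 0.54 without the 10 leading miRNAs and 0.39 on the share of listed miRNA reads. Mock was also the library with 410 rpm of blood miRNAs, against 9.56 rpm in CC, and the part of those in these differences was not tested.

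On the deposited scale the arms of let-7d stood on opposite sides of CC. Listed miRNAs took 23.2% of the reads in Mock and 16.3% in CC. Of the listed miRNA reads let-7d-5p had 41706 of 2462835 in Mock and 29477 of 1750776 in CC, which are nearly equal shares. The higher level of let-7d-5p in Mock therefore rests on the deposited scale, and it was not examined under the remaining scalings. Without the GC trend the log2 ratio of let-7d-5p was 0.26 in place of 0.52. let-7d-5p was 1.43-fold higher in Mock (1.41 to 1.45), with 3922 rpm in Mock against 2737 in CC, so that the ratio of 3p to 5p reads was 2.10-fold lower (2.04 to 2.17). The ratio was 1.52-fold lower for let-7b (1.43 to 1.62), where let-7b-5p was itself 1.09-fold lower (1.08 to 1.11). For let-7f-1 it was 1.23-fold lower (1.01 to 1.49), where let-7f-5p was 2.32-fold higher (2.31 to 2.34), more than its passenger strand. For let-7e it was 0.881-fold (0.724 to 1.07), an interval that includes no difference. let-7d was the 1 hairpin of these 4 past 2-fold, against a background of 16.7% (7 of 42 hairpins), made up of 11.9% lower and 4.76% higher. Of the 42 hairpins 4 had a lower value than let-7d (-1.07), 7 lower than let-7b (-0.61), 14 lower than let-7f-1 (-0.30) and 19 lower than let-7e (-0.18), with a median of -0.17 over all 42.

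**Figure D4:**
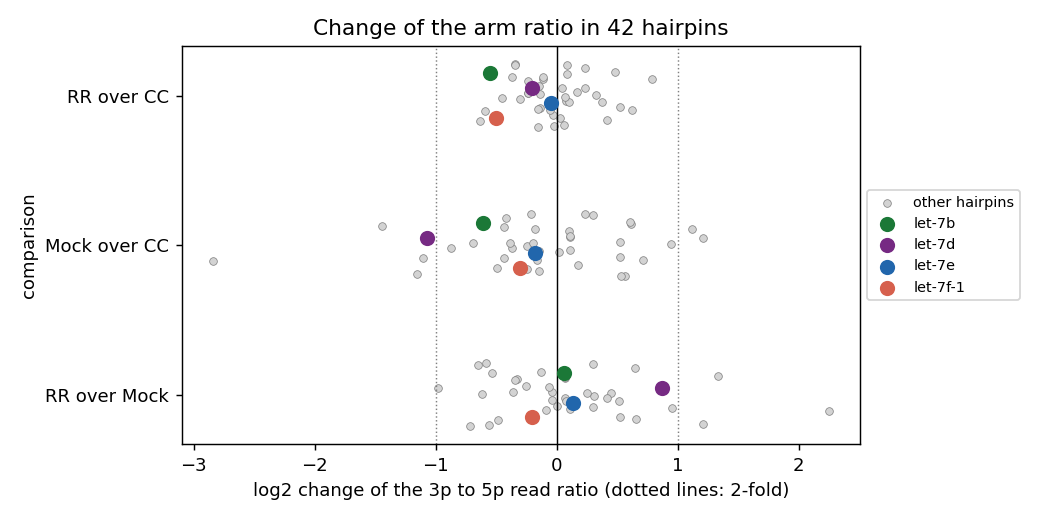
Log2 change of the 3p to 5p read ratio (horizontal axis) in 42 hairpins for RR over CC, Mock over CC and RR over Mock; each point is a hairpin, the 4 let-7 hairpins are coloured and the vertical scatter of the grey points has no meaning. let-7b (-0.55) and let-7f-1 (-0.50) lie near the low end in RR over CC, and let-7d (-1.07) near the low end in Mock over CC.

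Ratios to Mock moved with GC content across miRNAs. In the 208 miRNAs the log2 ratio Mock over CC was lower by 0.29 for each 10 points of GC content (slope -0.29), whereas in RR over CC the slope was 0.02. Across the 42 hairpins, the change of the arm ratio in Mock over CC was steeper on the GC difference between the arms, with a slope of -0.44 per 10 points, than the trend removed below, which is that over single miRNAs. Each passenger strand is richer in GC than its guide: let-7b-3p and let-7d-3p have 50% GC, let-7e-3p 54.5% and let-7f-1-3p 40.9%, beside 45.5% for let-7b-5p, 40.9% for let-7d-5p and let-7e-5p and 31.8% for let-7f-5p. After removal of a linear GC trend the log2 change of the arm ratio in Mock over CC was -0.81 for let-7d, under 2-fold, -0.47 for let-7b, -0.08 for let-7f-1 and 0.19 for let-7e, which turned its sign. After it, 4 of the 42 hairpins lay below let-7d (4 before) and 7 below let-7b (7 before), whereas 19 lay below let-7f-1 (14 before) and 29 below let-7e (19 before). In RR over CC the corrected values were -0.56 for let-7b, -0.53 for let-7f-1, -0.23 for let-7d and -0.10 for let-7e. The correction leaves miRNAs of 50% GC where they were, so that the levels of let-7b-3p and let-7d-3p could not move under it. Among the 65 miRNAs of the middle GC group (47.1% to 54.5%), whose median log2 ratio Mock over CC was 0.28, 4 lay below let-7b-3p, 6 below let-7d-3p and 38 below let-7e-3p. The low GC group (22.2% to 45.5%), which holds let-7f-1-3p, had a median of 0.65, and 57 of its 80 miRNAs lay below let-7f-1-3p. Without the GC trend the log2 ratio of let-7f-1-3p in Mock over CC was 0.61 in place of 0.88. Whether GC content has a part in these differences was not tested beyond this correction.

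**Figure D5:**
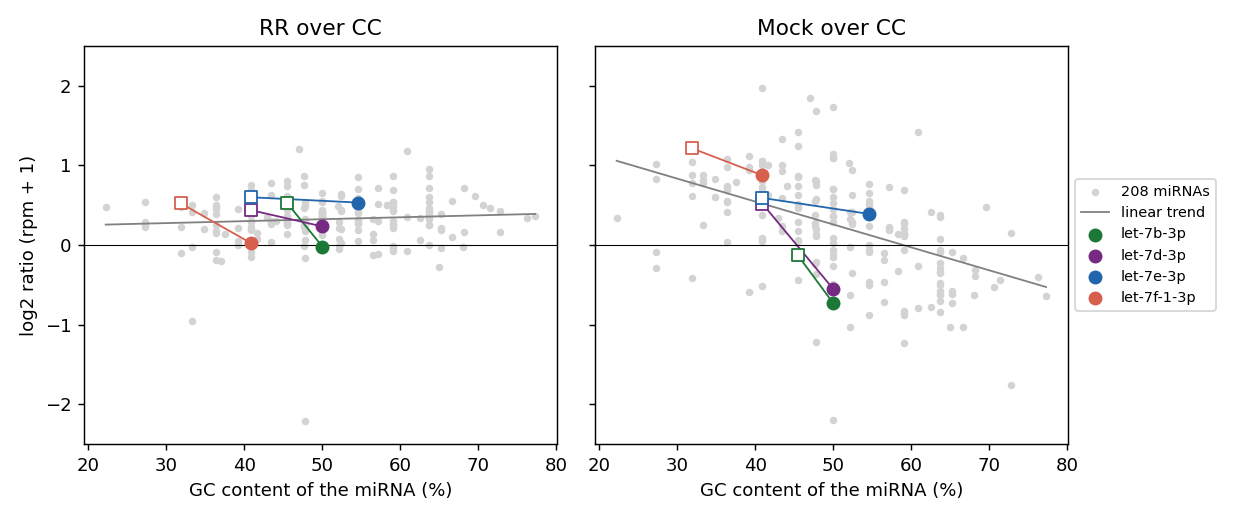
Log2 ratio of rpm + 1 (vertical axis, limited to 2.5 in size, which leaves 4 of the 208 miRNAs outside) against GC content of the miRNA (percent) for RR over CC and Mock over CC; grey points are miRNAs, filled circles the passenger strands, open squares their guides, joined by a line. The trend is near flat in RR over CC, with a slope of 0.02 per 10 points, and downward in Mock over CC, with a slope of -0.29.

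The third comparison, RR over Mock, reuses both libraries. If the labels hold, it sets repeated irradiation against 1 dose, and if they were exchanged, the direction of each value here would turn. let-7d-3p was 1.72-fold higher in RR (1.68 to 1.77), at 1473 rpm in RR and 854 in Mock, and let-7b-3p 1.64-fold higher (1.54 to 1.75). let-7f-1-3p was 1.86-fold lower (1.53 to 2.27), at 15.5 rpm in RR and 28.8 in Mock, and let-7e-3p was 1.11-fold (0.930 to 1.32), which includes no difference. Without the GC trend the log2 ratio of let-7f-1-3p was -0.57 in place of -0.85. None of the 4 was past 2-fold, against a background of 13% (27 of 208 miRNAs, with 8.17% higher and 4.81% lower), and their median log2 ratio was 0.43 beside 0.06 for all 208. let-7d-5p was 0.945-fold (0.932 to 0.958), so that the let-7d ratio of 3p to 5p reads was 1.83-fold higher in RR (1.77 to 1.88), or 0.87 on the log2 scale, which became 0.58 once the GC trend was removed. For let-7b, let-7e and let-7f-1 the ratio was 1.04-fold (0.976 to 1.11), 1.10-fold (0.921 to 1.32) and 0.868-fold (0.713 to 1.05), all with intervals that include no difference; without the GC trend their log2 changes were -0.089, -0.29 and -0.45, the first 2 with the sign turned. let-7b-3p and let-7b-5p were thus apart from Mock by like amounts, the guide being 1.58-fold higher in RR (1.56 to 1.60). None of these 4 arm ratios was past 2-fold, where 7.14% of the 42 hairpins were.

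The other passenger strands of the family were rare, and 6 of the 7 on the list were measured. let-7g-3p was not among the miRNAs of the deposited table. They summed to 25.4 rpm in RR, 27.9 rpm in Mock and 21.4 rpm in CC. let-7a-3p had 9.36 rpm in RR, 10.9 rpm in Mock and 7.06 rpm in CC. let-7f-2-3p, from the second let-7f hairpin, stood at 7.54 rpm in RR, 9.22 rpm in Mock and 7.71 rpm in CC. Its ratio to let-7f-5p was 1.47-fold lower in RR than in CC (1.07 to 2.03) and 1.94-fold lower in Mock than in CC (1.43 to 2.63). let-7i-3p had 16 reads in RR, 15 reads in Mock and 22 reads in CC. Its ratio to let-7i-5p was 2.16-fold lower in RR than in CC (1.08 to 4.39) and 2.54-fold lower in Mock than in CC (1.26 to 5.26). let-7i-3p is richer in GC than its guide by 18.2 points, and without the GC trend the log2 change in Mock over CC was -0.62, under 2-fold, in place of -1.34. let-7a-2-3p had 52 reads in RR, 35 reads in Mock and 25 reads in CC. Its ratio to let-7a-5p was 1.51-fold in RR over CC (0.918 to 2.53) and 1.71-fold in RR over Mock (1.09 to 2.70), a log2 change of 0.77 that became 0.088 without the GC trend. For let-7a-3p, let-7c-3p and miR-98-3p all intervals of the arm ratio included no difference. In RR over CC, 5 of the 10 listed passenger strands had an interval below 1 and 0 above it, beside 21.4% below and 19% above among the 42 hairpins. The shares for the 42 are of 3p over 5p, with the 3p strand the lower arm in 20 of them. In Mock over CC, which shares the CC library, 5 were below and 0 above, beside 31% below and 31% above. In RR over Mock 0 were below and 2 above, beside 23.8% below and 28.6% above. The 6 rarer strands are not among the 42 hairpins, and their fewer reads give wider intervals. Strands that share a guide, as let-7f-1-3p and let-7f-2-3p share let-7f-5p, are not independent in these counts.

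Guides outside the 4 hairpins gave the wider family. Of let-7a-5p, let-7c-5p, let-7g-5p, let-7i-5p and miR-98-5p, none was past 2-fold in RR over CC, beside 1.44% of all 208 miRNAs, and 3 were higher by 2-fold or more in Mock over CC, beside 12%. From the deposited rpm, the medians were 0.55 in RR over CC and 1.04 in Mock over CC on the log2 scale. In RR over CC let-7c-5p was lower, at 0.897-fold (0.822 to 0.979), and the other 4 were higher. The 3 past 2-fold in Mock over CC came under it without the GC trend: miR-98-5p was at 1.04 and then at 0.52, let-7g-5p at 1.08 and then at 0.68, and let-7c-5p at 1.05 and then at 0.79. The passenger strands' medians of 0.13 and -0.08 were lower in both.

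Hairpins that stand beside those of the passenger strands gave the following levels. miR-99b-3p, the rarer arm of the hairpin upstream of let-7e, stood at 97.1 rpm in RR, 76.7 rpm in Mock and 58.7 rpm in CC; RR over CC was 1.65-fold (1.497 to 1.830), with let-7e-3p at 1.47-fold. miR-125a-3p, from the hairpin downstream, had 43.1 rpm in RR, 38.4 rpm in Mock and 34.8 rpm in CC; it was 1.24-fold higher in RR than in CC (1.08 to 1.42). RR over Mock was 1.27-fold for miR-99b-3p (1.15 to 1.39) and 1.12-fold for miR-125a-3p (0.979 to 1.29), the second with an interval that includes no difference, as for let-7e-3p. miR-99b-5p was closer to CC than miR-99b-3p, at 1.19-fold higher in RR (1.17 to 1.21). miR-125a-5p was 1.17-fold higher in RR (1.15 to 1.19), which lies within the interval of miR-125a-3p. Beside let-7b, miR-4763-3p had 1 read in RR, 0 in Mock and 1 in CC, under the floor of 3 reads. Of the 8 neighbour strands on the list 7 were measured, 5 of them averaging 10 rpm or more, and none of these was past 2-fold in RR over CC, beside 1.44% of all 208 miRNAs, or in Mock over CC, beside 15.9%.

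The miRNAs whose pattern over the 3 libraries was most like that of each passenger strand were found by the distance of centred log2(rpm + 1) values among the other 207 miRNAs. Nearest to let-7d-3p were miR-423-3p (distance 0.03), miR-589-5p (0.04) and miR-941 (0.05), beside a median distance of 0.69. miR-423-3p stood at 5626 rpm in RR, 3309 rpm in Mock and 4928 rpm in CC. Nearest to let-7b-3p were miR-365a-5p (0.06), miR-1292-5p (0.08) and miR-574-3p (0.09). let-7b-3p and let-7d-3p were at a distance of 0.18 from each other, with 10 miRNAs nearer to let-7b-3p than let-7d-3p was. Nearest to let-7e-3p were miR-12135 (0.04), miR-339-3p (0.07) and miR-3158-3p (0.08), and nearest to let-7f-1-3p were miR-7-5p (0.03), miR-19b-3p (0.07) and miR-16-2-3p (0.11). miR-7-5p stood at 4243 rpm in RR, 7892 rpm in Mock and 4300 rpm in CC. A likeness over 3 libraries is a description of these libraries only.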

How the data were processed

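The authors deposited a table of mature miRNAs with a column per library, in a unit its name calls TPM. The deposited values behave as RPM: within a library all values are multiples of a single step, to 0.01 of a read, which gave whole reads for 100% of values. Libraries were made by adapter ligation and PCR from total RNA, per the labels' protocols; the submitters' processing notes list Bowtie and GRCh38 without their role. Not given in the sources used here were trimming, the miRNA reference and the treatment of multiply matching reads.

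Columns were tied to libraries by the treatment tag. With 1 library per group no count model has residual degrees of freedom, and none was fitted; past 2-fold stands for a call, after adding 1 rpm, among miRNAs averaging 10 rpm or more. Levels carry exact Poisson intervals, ratios exact limits derived from Clopper-Pearson shares, and changes of the arm ratio the exact conditional interval of the odds ratio; an interval compares libraries, not conditions. A 3p strand was paired with the 5p strand of its hairpin name. The named miRNAs are the 4 strands, their guides, the listed family, neighbours and cell type markers, miRNAs of the same seed and the 3 nearest patterns per strand. The members and lists were chosen with earlier results of these data known. Calculations were tested on simulated data. Alternatives were other pseudocounts, scalings, filters and thresholds and removal of a linear GC trend. Tables were handled with pandas 2.3.3 and numpy 2.4.6, intervals with scipy 1.17.1 and figures with matplotlib 3.10.9, under Python 3.11.15.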

Additional observations from a re-analysis of the deposited data

How the results depend on the processing

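No paired analysis was possible because each group has 1 library; leaving out a library leaves no comparison. The count of the 4 passenger strands past 2-fold stayed at 0 in RR over CC under every alternative. In Mock over CC it was 1 (let-7b-3p, lower) both with median-ratio scaling and with a scaling that leaves out the top 10 miRNAs, 2 on the share of miRNA reads and 2 at a threshold of 1.5-fold, and in RR over Mock 3 at 1.5-fold. The median log2 ratio of the 4 strands became, in the order of these 3 scalings, -0.24, -0.18 and -0.20 in RR over CC (0.13 as reported) and -0.38, -0.42 and -0.58 in Mock over CC (-0.08); in RR over Mock it was 0.60 on the share of miRNA reads (0.43). These scalings move all miRNAs of a library alike by construction. After subtraction of the 208-miRNA median, that of the 4 strands in RR over CC was -0.23 as reported. It was bound to stay near this under these scalings, at -0.22. With a pseudocount of 10 rpm it was -0.16, and without the GC trend -0.20. Single strands lay on both sides of the 208-miRNA median. With median-ratio scaling let-7b-3p was at -0.38 from it, let-7f-1-3p at -0.32, let-7d-3p at -0.13 and let-7e-3p at 0.19. Removal of the GC trend took the log2 change of the arm ratio in Mock over CC to -0.47 for let-7b, -0.81 for let-7d and 0.19 for let-7e, and in RR over Mock to -0.089 for let-7b, 0.58 for let-7d and -0.29 for let-7e; a pseudocount of 1 rpm on both arms left each of the 12 arm ratios within its counting interval. The count over all miRNAs, 3 in RR over CC, 33 in Mock over CC and 27 in RR over Mock, was 1, 16 and 16 with a pseudocount of 10 rpm, 8, 60 and 57 with no filter, 7, 57 and 50 for means from 1 rpm, 0, 12 and 11 for means from 100 rpm, 30, 96 and 76 at 1.5-fold, and 1, 5 and 5 at 4-fold; with the GC trend removed it was 21 in Mock over CC and 14 in RR over Mock. The split of higher and lower in Mock over CC, 25 and 8, was 10 and 18 with median-ratio scaling and 7 and 31 on the share of miRNA reads; in RR over CC, 2 and 1 became 0 and 2 under all 3 scalings, and in RR over Mock, 17 and 10 became 25 and 8 on that share. Depth limits let-7e-3p and let-7f-1-3p, with 162 to 306 reads a library, and the rarer passenger strands more so.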
